A study of Mus musculus with 54 samples.

Results

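Loss of BORIS in mice with 1 functional *Ctcf* allele was examined in testis RNA by comparing the compound mutant (CM, *Ctcf*+/- *Boris*-/-, called DKO in the sample titles) with CTCF heterozygotes (CTCF HET, *Ctcf*+/- *Boris*+/+). The comparison held 6 of the 54 libraries of the series, 3 of each genotype, and the knockout *Ctcf* allele was shared by both groups. All animals were male C57BL/6 mice aged 3 months, and CM males came from crosses of CTCF HET females with BORIS KO males. Each library was made from germ cell-enriched suspensions of whole testis pooled from 4 mice, so 1 library stands for a pool and not for an animal. Wild-type (WT, *Ctcf*+/+ *Boris*+/+) and BORIS KO (*Ctcf*+/+ *Boris*-/-) testes, 3 libraries each, gave the same loss of BORIS with both *Ctcf* alleles present. Purified round spermatids and spermatocytes of CM and CTCF HET, again 3 libraries each, gave it in single germ cell types.

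CTCF is a zinc finger protein that binds sites throughout vertebrate genomes, acts with cohesin at the anchors of chromatin loops and insulates promoters from neighbouring enhancers. BORIS, encoded by *Ctcfl*, is its paralog with a nearly identical zinc finger domain and is normally made in male germ cells. In the seminiferous epithelium, spermatogonia divide and enter meiosis as spermatocytes, the products of meiosis are round spermatids, and these elongate into spermatozoa while histones are replaced by protamines and the acrosome and flagellum are built. Sertoli cells nurse the germ cells inside the tubule, peritubular cells wrap it, and Leydig cells and macrophages lie between tubules.

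The targeted genes were examined first. *Ctcfl* itself gave 8, 8 and 8 reads in the CTCF HET libraries and 8, 2 and 2 reads in the CM libraries, too few to be tested. Which exons the knockout removes relative to the counted gene was not analysed here, so the few reads in CM neither check nor contradict the genotype. In round spermatids, where the gene is read more deeply, the counts were 213, 241 and 157 in CTCF HET and 204, 141 and 73 in CM. *Ctcf* was at 27.6, 30.2 and 22.3 CPM (counts scaled to library totals corrected by TMM factors) in CTCF HET replicates 1, 2 and 3 and at 27.4, 26.9 and 24 CPM in CM, in overlapping ranges, with a log2 fold change of -0.08 (SE 0.24, adjusted p = 0.835). Scaled to library totals alone it was at 24.4, 28.6 and 21.6 in CTCF HET and at 32.2, 30.6 and 29.6 in CM, all above the CTCF HET libraries, and its log2 fold change was 0.31 (adjusted p = 0.385), so its direction turned with the scaling. The 3 WT libraries held 39.9 to 47.0 CPM of *Ctcf*, above all 6 heterozygous libraries. *Rltpr*, the gene that follows *Ctcf* on mouse chromosome 8 (chr8:108210174-108222078 in mm9, against chr8:108160468-108206822 for *Ctcf*), was at 1.10 to 1.71 CPM in WT, at 104, 67.9 and 66.8 CPM in CTCF HET and at 80.6, 49.5 and 40.9 CPM in CM. It was therefore high in every library with the knockout allele and its difference between CM and CTCF HET did not pass the test (log2 -0.53, adjusted p = 0.249; -0.55 and 0.029 with the replicate number as a block).

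Total counts ran from 10460642 to 27558314 per library (median 17383794) in CTCF HET and from 10437683 to 33899173 (median 14365210) in CM, and replicate 1 was the deepest library of both groups. TMM scaling factors were 0.882 to 0.968 in CTCF HET and 1.14 to 1.23 in CM, so the scaling lowered CM relative to CTCF HET. Without it the median log2 fold change of all genes moved from -0.02 to 0.37, and fold changes below are relative to the TMM scaling. The markers of germ cells were detected in every library. Of the erythrocyte markers, *Hba-a1* and *Hbb-b1* were at 0 in all 6 libraries. Markers of Leydig cells and macrophages were present in all 6. Of 6 Leydig markers, 5 were called higher in CM and *Insl3* was not (log2 -0.48, edgeR adjusted p = 0.78). All 6 macrophage markers had a positive fold change and 4 were called higher. Values are given beside the gene groups below. CM replicate 1 had the highest summed level of Leydig, Sertoli, peritubular and stromal, and macrophage genes. It had the lowest of sperm flagellum genes and of the genes listed as testis-specific kinases.

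In CM testes, genes of steroid-producing Leydig cells, of macrophages and of lipid synthesis were higher than in CTCF HET, and genes used by round and elongating spermatids were lower. Of 16531 genes tested, 1756 (10.6%) were higher and 806 (4.88%) lower in CM at an adjusted p below 0.05 in edgeR's quasi-likelihood test, 15.5% in all. The median log2 fold change was 1.67 among the genes called higher and -1.20 among those called lower, against -0.02 over all genes tested, and 1715 and 646 of the calls (10.4% and 3.91% of the genes tested) were also changed more than 2-fold. Higher genes made up 68.5% of the calls, and 92.8% (3821 higher and 297 lower) with library totals alone, a setting added after seeing the data. CM and CTCF HET libraries did not overlap for 1739 of the 1756 genes called higher and 805 of the 806 called lower. Among all 16531 genes tested, 3812 had every CM library above every CTCF HET library and 2831 had every one below, against 2562 genes called. A lack of overlap was thus common among genes not called. It comes from the same libraries as the call and adds no support to it, here or where it is given for single genes below. In whole testis RNA, fewer cells of a type and less RNA per cell cannot be told apart.

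The number of genes called depended on the treatment of the replicate number and on single libraries. With the replicate number as a block, 3860 genes were higher (23.4%) and 3246 lower (19.6%), 43% in all, among them all 1756 and 805 of the 806 called without the block. DESeq2 called 2485 genes higher and 1533 lower. No gene reached an adjusted p below 0.001 with a fold change above 2 in edgeR without the block (5761 genes had an unadjusted p below 0.05, and the smallest adjusted p was 0.00597), whereas 1262 and 518 did with the block and 644 and 270 did with DESeq2. Single libraries were left out only in fits without the block, so the dependence of the blocked counts on them was not tested. Without CTCF HET replicate 2, 0 genes were called (4273 at an unadjusted p below 0.05), without CTCF HET replicate 3 2 were higher and 6 lower, without CM replicate 3 2 were higher and 0 lower, without CTCF HET replicate 1 700 and 215 were called, and without CM replicate 2 2869 were higher and 758 lower. Of 144 called genes named here, 97 were still called without CTCF HET replicate 1, 0 without CTCF HET replicate 2, 4 without CTCF HET replicate 3 and 2 without CM replicate 3, and none changed direction. Values below are CPM in the order of replicates 1, 2 and 3, and each adjusted p is from edgeR without the block. Counts of called members of a group stand against 10.6% of all genes tested called higher and 4.88% called lower. With the block these shares were 23.4% and 19.6%.

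*Serpina3n*, which encodes a secreted serine protease inhibitor, had the strongest evidence of an increase. It was at 2.10, 1.34 and 1.28 CPM in CTCF HET and at 75.5, 29.1 and 40.3 CPM in CM, a log2 fold change of 4.85 (SE 0.44, adjusted p = 0.00597). *Tas1r1*, a subunit of the umami taste receptor, went from 0.29, 0.49 and 0.59 CPM to 18.3, 11.6 and 9.57 CPM (log2 4.86, SE 0.44, adjusted p = 0.00597). *Nid2*, a basement membrane nidogen, was at 11.2, 12.5 and 8.50 CPM in CTCF HET and 103, 45.5 and 56.1 CPM in CM (log2 2.61, SE 0.34, adjusted p = 0.0195). For these 3 genes every CM library lay several-fold above every CTCF HET library. *C3*, the central component of complement, was at 21.2, 18.5 and 14.5 CPM and 112, 62.4 and 109.8 CPM (log2 2.33, adjusted p = 0.0195). *Aldh1a7*, an aldehyde dehydrogenase, was at 5.56, 4.98 and 3.36 CPM and 42.0, 22.1 and 44.8 CPM (log2 2.91, adjusted p = 0.0187). *Dnahc11*, an axonemal dynein heavy chain, was at 3.13, 3.04 and 3.56 CPM and 18.2, 44.9 and 40.4 CPM (log2 3.38, adjusted p = 0.0187), and unlike the first 3 genes it was lowest, among the CM libraries, in replicate 1. *Hao2*, a peroxisomal hydroxyacid oxidase, and *Ptpro*, a receptor tyrosine phosphatase, rose with log2 fold changes of 3.01 (SE 0.36) and 2.87 (SE 0.32).

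Several of the largest increases started from almost no reads in CTCF HET. *Pnp2*, a purine nucleoside phosphorylase, had 4 reads over the 3 CTCF HET libraries and 278 over the 3 CM libraries (4.09, 4.16 and 3.66 CPM). The tight junction gene *Cldn10* had 13 and 666 reads (0.41, 0.18 and 0 CPM against 11.2, 5.01 and 10.7 CPM). *Rnase10*, of the RNase A family, had 10 and 188 reads, *Klk1b1* 14 and 368, and *Serpina3m* 9 and 341. All these genes were called, but 317 of the 341 *Serpina3m* reads came from CM replicate 1. *Klk1b1* and *Klk1b27* are tissue kallikreins, and together with the Serpina3 genes they belong to families of close copies, between which reads may have been divided in ways that were not stated. *Hspb8*, a small heat shock protein (0.58, 0.30 and 1.68 CPM against 23.8, 7.40 and 13.6 CPM, log2 4.18), and *Thrsp*, a regulator of fatty acid synthesis (0.70, 0.49 and 0.99 CPM against 11.8, 4.52 and 15.2 CPM, log2 3.83), also rose from low levels.

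**Figure D1:**
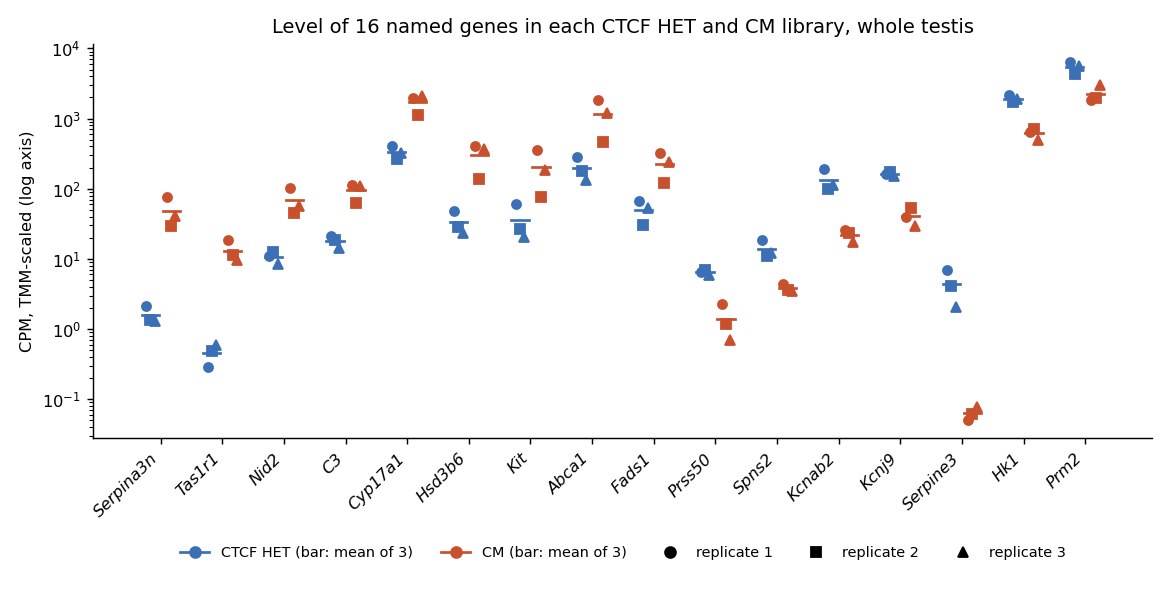
Level of 16 named genes in each whole testis library, in TMM-scaled CPM on a log axis, with CTCF HET in blue and CM in red; the symbol gives the replicate and the bar the mean of 3 libraries. The 3 CM libraries lie on one side of the 3 CTCF HET libraries for all 16 genes, above them from *Serpina3n* to *Fads1* and below them from *Prss50* to *Prm2*. For genes named by smallest p or largest fold change this was a condition of the naming.

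Among the genes that fell, *Serpine3*, another serpin, was at 7.00, 4.13 and 2.08 CPM in CTCF HET and at 0.05, 0.06 and 0.08 CPM in CM (log2 -6.16, SE 0.65, adjusted p = 0.013), from 259 reads in CTCF HET and 4 in CM. *Kcnab2*, a potassium channel subunit, went from 193, 99.4 and 113 CPM to 25.6, 23.4 and 17.5 CPM (log2 -2.65, SE 0.33, adjusted p = 0.0187). *Kcnj9*, an inward rectifier potassium channel, went from 162, 172 and 149.9 CPM to 40.0, 52.6 and 29.3 CPM (log2 -2.03, SE 0.28, adjusted p = 0.02). Both channel genes were well expressed and their groups were far apart relative to the spread within them. *Erp29*, which assists folding in the endoplasmic reticulum, was at 231, 189 and 182 CPM and 59.4, 51.7 and 48.9 CPM (log2 -1.96). *Pim1*, a serine/threonine kinase, was at 127, 113 and 106 CPM and 37.9, 34.6 and 38.3 CPM (log2 -1.69). The MYC-interacting protein gene *Cdca7l* (log2 -2.85), the receptor kinase gene *Ltk* (-3.45), the adaptor *Grap2* (-2.12) and the nectin gene *Pvrl4* (-2.11) completed the genes with the smallest p. The groups of genes named by smallest p or largest fold change do not overlap because the rule for naming them required it.

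Other genes with large decreases had from 49 reads over the 3 CTCF HET libraries (*Defb11*) to 980 (*Gm10406*). The beta-defensins *Defb11* and *Defb15*, members of a family of close copies, had 49 and 89 reads in CTCF HET and 2 and 10 in CM. *Rprl3*, which encodes an RNase P RNA-like transcript, had 1.07, 5.04 and 33.9 CPM in CTCF HET and 0.03, 0.31 and 0.16 CPM in CM, and 343 of its 452 CTCF HET reads came from replicate 3. *Hapln1*, a hyaluronan link protein (-3.03), the axon guidance gene *Slit1* (-2.94), the mitochondrial calcium uniporter subunit gene *Ccdc109b* (-2.90) and the guanylate cyclase receptor gene *Gucy2c* (-2.75) fell as well, by the log2 fold changes given. *Gm10406*, a gene model with near-identical copies, was at 15.1, 33.0 and 6.92 CPM and 1.41, 1.41 and 0.93 CPM (log2 -3.89, SE 0.56, adjusted p = 0.02). Its reads in purified cells overlapped. They were 384, 354 and 214 in CTCF HET and 89, 253 and 336 in CM round spermatids. In spermatocytes they were 104, 57 and 113 in CTCF HET and 189, 12 and 54 in CM.

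Genes that work in spermatids were described in 7 groups, and nearly all their members had negative fold changes, though fewer passed the test. With library totals alone the 7 medians were still below 0, at -0.28 to -0.53, and the genes that fell numbered 5 for the flagellum, 4 for isozymes, 1 for kinases, 1 for ion channels, 0 for the acrosome, 1 for chromatin condensation and 4 for regulators. Of 39 genes of the sperm flagellum, 39 were below 0, with a median log2 fold change of -0.76, and 7 fell and 0 rose (29 and 0 with the replicate block). *Tekt4*, a tektin of the axoneme, fell from 258, 248 and 333 CPM to 91.5, 130.5 and 131 CPM (log2 -1.30, SE 0.28, adjusted p = 0.0253). Its relative *Tekt5* (log2 -1.15), the outer dense fibre gene *Odf3* (-1.36) and the fibrous sheath anchor *Akap3* (2304, 1844 and 1514 CPM against 775, 961 and 802 CPM, -1.20) also fell. The flagellum genes summed to 33449 to 34699.7 CPM in CTCF HET and to 16458.3 to 22081.0 CPM in CM, so that the groups did not overlap.

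The list of germ cell isozymes of energy metabolism had the lowest median of all groups, -0.91, and 9 of 23 fell (15 with the block). It also held *Tcp10a*, *Hspa1l* and *Odf3l1*, which are not isozymes of energy metabolism. Both *Hspa1l* (log2 -1.036) and *Odf3l1* (-1.225) were among the 9. *Hk1*, hexokinase, was at 2142, 1737 and 1902 CPM and 648, 708 and 488 CPM (log2 -1.70, SE 0.28, adjusted p = 0.0212). *Gapdhs*, the sperm glyceraldehyde phosphate dehydrogenase, was at 2857, 2458 and 2137 CPM and 909, 1023 and 962 CPM (log2 -1.41, SE 0.26). The acyl-CoA synthetase *Acsbg2* (-1.39) and the aldolase *Aldoart1* (-1.12) fell as well. All 23 listed genes summed to 18742.4 to 21048.4 CPM in CTCF HET and to 8222.8 to 14459.0 CPM in CM.

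Of 17 genes listed as testis-specific kinases, 17 had a negative fold change (median -0.68) and 4 fell (11 with the block). The list also held the PKA regulatory subunits *Prkar1a* and *Prkar2a* and kinases found in many tissues, such as *Prkaca* and *Csnk1g2*. The 4 were *Csnk1g2*, *Prkar2a*, *Tssk2* and *Tssk4*. *Csnk1g2*, a casein kinase, went from 1956, 1733 and 2104 CPM to 386, 754 and 565 CPM (log2 -1.80, SE 0.33, adjusted p = 0.0216), and *Tssk2* and *Tssk4*, kinases of spermatid remodelling, fell by 1.18 and 1.03 on the log2 scale. *Tssk3*, which was named by the study, was at 323, 292 and 447 CPM and 66.6, 218 and 186 CPM and did not pass (log2 -1.21, adjusted p = 0.0827; 0.00553 with the block). Of the 18 sperm ion channel and signalling genes (median -0.67), 4 fell (11 with the block), namely the sperm calcium channel genes *Catsper1* (-1.08), *Catsper3* (-0.88) and *Catsper4* (-0.98) and the potassium channel partner *Lrrc52* (-1.28). *Catsper1*, the pore-forming subunit, was at 114, 121 and 115 CPM in CTCF HET and 60.7, 60.3 and 49.3 CPM in CM.

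Of 34 acrosome and gamete fusion genes, 32 were below 0 (median -0.74), and 4 fell (27 with the block). *Izumo1*, the sperm protein that binds the egg, was at 112, 119 and 129 CPM and 48.3, 69.1 and 60.0 CPM (log2 -1.06, SE 0.25, adjusted p = 0.0293), and *Prss37* (-0.95), *Spaca4* (-1.15) and *Spaca7* (-0.87) were the others. Genes of spermatid chromatin condensation had a median of -0.83 over 17 members, 2 of which fell (9 with the block). *Prm2*, protamine 2, was at 6420.0, 4314 and 5569 CPM and 1832, 1975 and 2984 CPM (log2 -1.31, SE 0.32, adjusted p = 0.0316), and *Prm3* at 288, 172 and 226 CPM and 88.7, 121 and 91.7 CPM (log2 -1.23). The linker histones of spermatids, *H1fnt* (log2 -1.47, adjusted p = 0.056) and *Hils1* (-0.94, 0.0929), did not pass without the block and did with it (0.000671 and 0.013). The summed levels of these condensation genes were 15765.2 to 29330.1 CPM in CTCF HET and 5287.7 to 14075.7 CPM in CM.

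Among 19 transcription and RNA regulators of spermatids (median -0.79), 7 fell and 1 rose (13 and 1 with the block). *Rfx2*, a transcription factor of spermatid ciliary genes, went from 329, 333 and 383 CPM to 163, 163 and 143 CPM (log2 -1.21, SE 0.24, adjusted p = 0.0227). *Sox30*, which switches on the programme of round spermatids, went from 131, 169 and 178 CPM to 63.6, 81.4 and 70.6 CPM (log2 -1.19). *Sox5* (-1.14) and *Kif17*, the kinesin that moves the coactivator of CREM (-1.21), fell to a like extent. The groups of these 4 genes did not overlap.

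Genes of earlier germ cells had medians nearer 0, and with library totals alone those of the 4 groups given next were 0.34, 0.39, -0.0050 and 0.0061, so they have no direction apart from the scaling. Of 14 synaptonemal complex and meiotic axis genes, 0 were called (0 and 4 with the block) and the median was -0.03, and of 22 meiotic recombination genes 0 were called (1 and 2 with the block), with a median of 0.00. *Syce1*, of the central element, was at 442, 444 and 405 CPM and 159, 329 and 238 CPM (log2 -0.87, adjusted p = 0.0832). *Rec8*, the meiotic cohesin subunit, was at 137, 94.8 and 112 CPM and 54.2, 84.7 and 51.7 CPM (log2 -0.89, adjusted p = 0.065), and *Prdm9*, which sets recombination hotspots, at 1.81, 1.34 and 1.38 CPM and 4.11, 2.26 and 2.49 CPM (log2 0.92, adjusted p = 0.11). For each of these 3 genes the groups did not overlap, and the differences did not pass the test without the block but did with it (adjusted p = 0.00658, 0.00586 and 0.0406). Of 24 meiotic cell cycle genes (median -0.38), 0 were called (2 higher and 5 lower with the block), and of 17 Piwi and germ granule genes (median -0.37), again 0 (3 lower with the block). The summed level of the synaptonemal genes was 1665.6 to 1925.2 CPM in CTCF HET and 1069.1 to 1645.7 CPM in CM.

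Spermatogonial genes differed in both directions. Of 26 tested, 5 rose and 1 fell, with a median of 0.41 (9 and 2 with the block). Their summed level overlapped, with 784.7 to 789.2 CPM in CTCF HET and 587.3 to 910.2 CPM in CM. The member that fell was *Dmrtb1* (log2 -1.01, adjusted p = 0.0356). *Sohlh1* (-1.08, 0.0683) and *Gfra1* (-0.73, 0.171) had every CM library below every CTCF HET library. Neither passed without the block, and *Sohlh1* did with it (0.00985). *Kit*, the receptor of differentiating spermatogonia that Leydig cells also express, was at 60.0, 26.6 and 20.4 CPM in CTCF HET and 361, 76.9 and 183 CPM in CM (log2 2.47, SE 0.57, adjusted p = 0.0269). *Ccnd2*, cyclin D2, went from 2.67, 2.86 and 2.47 CPM to 26.7, 8.25 and 18.4 CPM (log2 2.67, adjusted p = 0.0212). *Zbtb16*, the PLZF factor of undifferentiated spermatogonia, went from 3.25, 3.46 and 3.65 CPM to 26.6, 6.24 and 13.9 CPM (log2 2.12), and *Ret*, the GDNF receptor, from 0.78, 1.22 and 0.59 CPM to 3.81, 2.57 and 2.18 CPM (log2 1.67). For *Kit*, *Ccnd2*, *Zbtb16* and *Ret* the highest library was CM replicate 1, and for *Kit* the lowest CM library and the highest CTCF HET library were close.

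Leydig cell genes showed the largest median of all groups, 1.83. Of 20 tested, 10 rose and 0 fell (16 and 0 with the block), and their summed level was 838.7 to 2029.0 CPM in CTCF HET and 2867.3 to 8466.0 CPM in CM, against 671.1 to 1500.2 CPM in WT and 1837.6 to 2502.8 CPM in BORIS KO. *Cyp17a1*, which makes androgen precursors, was at 411, 266 and 326 CPM and 1971, 1116 and 2109 CPM (log2 2.32, SE 0.33, adjusted p = 0.02). *Hsd3b6*, a hydroxysteroid dehydrogenase of adult Leydig cells, was at 48.5, 28.6 and 23.2 CPM and 402, 137 and 373 CPM (log2 3.13, SE 0.45, adjusted p = 0.0203). *Cyp11a1*, the enzyme that cleaves the cholesterol side chain, was at 153, 97.2 and 128 CPM and 486, 405 and 861 CPM (log2 2.16), and the prolactin receptor *Prlr* at 42.4, 25 and 28.9 CPM and 323, 99.2 and 203 CPM (log2 2.63). The lowest CM library of each of these 4 genes was replicate 2 and still lay above the highest CTCF HET library. The 2 members below 0 were *Srd5a1* (log2 -0.76, adjusted p = 0.173) and *Insl3* (-0.48, 0.78), and neither passed.

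Every one of 28 Sertoli cell genes had a positive fold change, with a median of 0.96, and 8 rose (20 with the block). *Trf*, transferrin, was at 22.7, 24.8 and 29.7 CPM and 80.3, 58.8 and 89.2 CPM (log2 1.51, SE 0.27, adjusted p = 0.0216). *Kitl*, the ligand of *Kit*, was at 9.14, 6.62 and 7.21 CPM and 39.9, 15.5 and 27.5 CPM (log2 1.79). *Clu*, clusterin, rose by 1.46 on the log2 scale. The Sertoli genes summed to 635.4 to 910.0 CPM in CTCF HET and 1300.2 to 2522.3 CPM in CM.

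Of 23 macrophage and leukocyte genes, 13 rose and 0 fell (21 and 1 with the block), with a median of 1.70. *Mrc1*, the mannose receptor, was at 30.3, 37.0 and 35 CPM and 119.6, 67.3 and 126 CPM (log2 1.56, SE 0.29, adjusted p = 0.0216). *Csf1r*, the receptor of the macrophage growth factor, was at 43.5, 28.9 and 36.5 CPM and 178, 62.1 and 135 CPM (log2 1.73), and *Cd74*, the invariant chain of antigen presentation, at 15.2, 7.48 and 5.73 CPM and 76.9, 35.4 and 29.7 CPM (log2 2.25). *Emr1*, which encodes F4/80, rose by 1.48. Peritubular and stromal genes, 22 in number, rose in 12 cases and fell in 1 (16 and 1 with the block), with a median of 1.26. *Col3a1*, a fibrillar collagen, was at 34.7, 25.3 and 23.3 CPM and 267, 97.5 and 75.6 CPM (log2 2.34), *Col1a2* rose by 1.67, and *Pdgfra*, the stromal growth factor receptor, was at 14.2, 22.6 and 21.9 CPM and 89.5, 52.3 and 83.9 CPM (log2 1.89). The member called lower was *Actg2*, smooth muscle gamma actin, which fell from 279, 319 and 265 CPM to 44.2, 102 and 99.0 CPM (log2 -1.85, SE 0.35, adjusted p = 0.0218). *Tagln* (-0.19) and *Lum* (-0.23) were also below 0 and did not pass. Of the 4 peritubular markers *Acta2*, *Myh11*, *Tagln* and *Cnn1*, 0 were called and the median was 0.33. With the block *Acta2* passed (adjusted p = 0.0147).

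**Figure D2:**
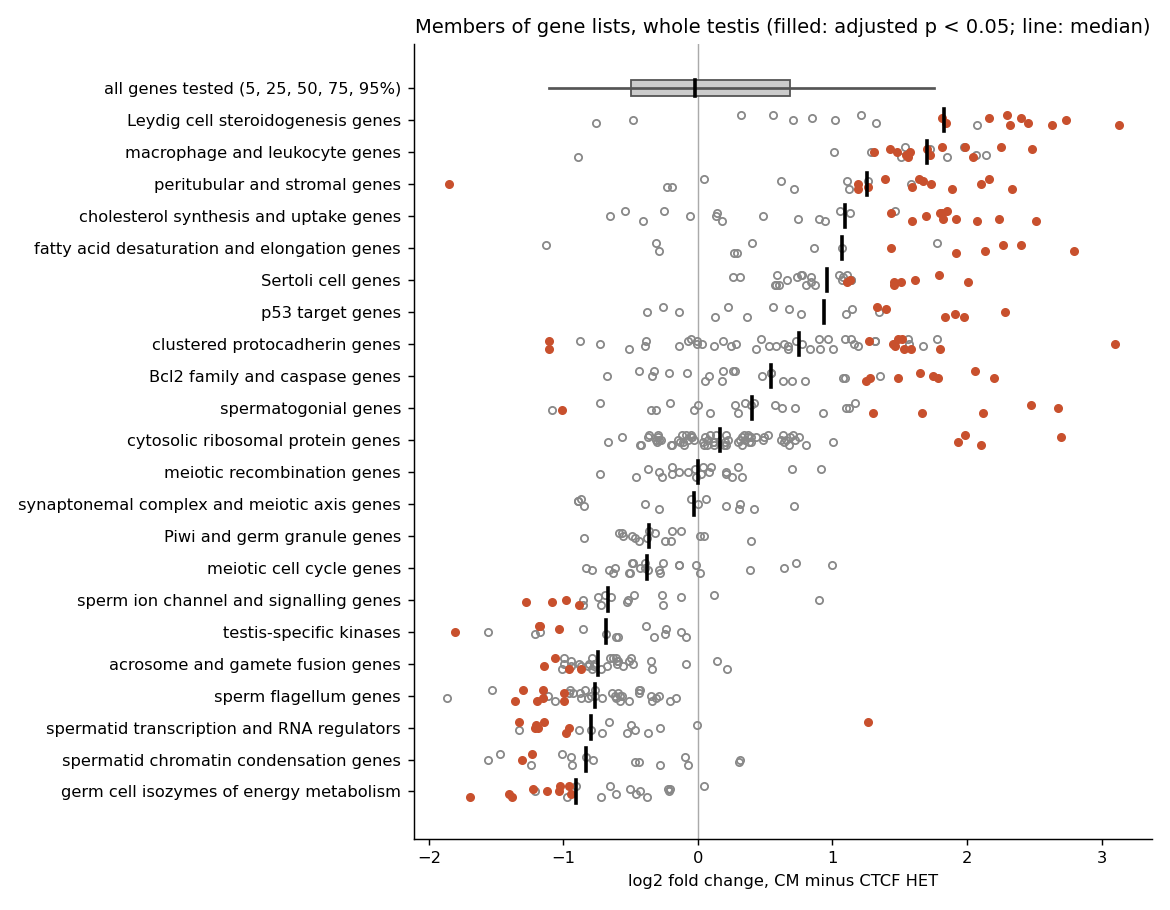
Log2 fold change, CM minus CTCF HET, of each tested member of 22 gene groups; filled points passed the test, open points did not, and the black line is the group's median. The grey box and whiskers show the 5th, 25th, 50th, 75th and 95th percentiles of all genes tested. Medians run from 1.83 for Leydig cell genes to -0.91 for the list of germ cell isozymes.

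**Figure D3:**
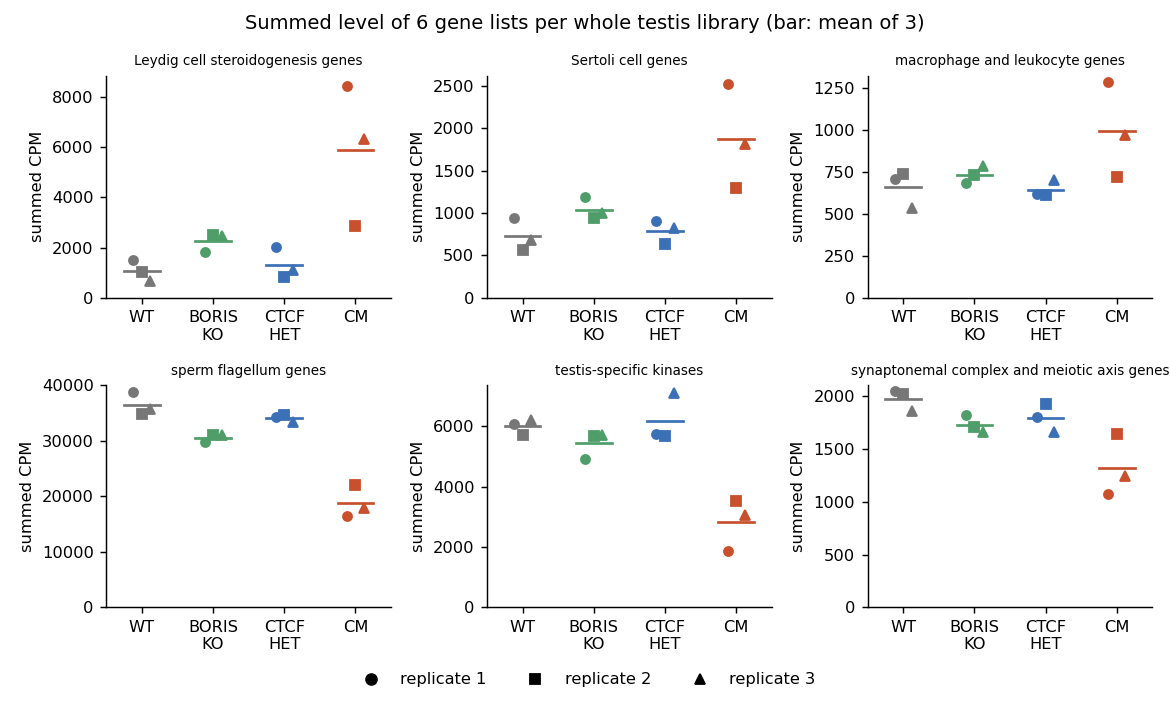
Summed CPM of 6 gene groups in each whole testis library of the 4 genotypes, with replicates as symbols and the mean of 3 as a bar. The 3 CM libraries lie above the CTCF HET libraries for Leydig, Sertoli and macrophage genes and below them for flagellum genes, the kinase list and synaptonemal genes. CM replicate 1 is the most extreme CM library in all 6 panels.

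Lipid genes formed a further group of increases. Of 26 genes of cholesterol synthesis and uptake, 11 rose and 0 fell (17 and 1 with the block), with a median of 1.09, and of 15 genes of fatty acid desaturation and elongation 6 rose and 0 fell (9 and 0 with the block), with a median of 1.07. *Abca1*, the cholesterol exporter, was at 280.3, 180.3 and 134 CPM in CTCF HET and 1862, 458 and 1211 CPM in CM (log2 2.51, SE 0.49, adjusted p = 0.0225). *Sc4mol*, *Nsdhl* and *Hsd17b7*, which carry out successive late steps of cholesterol synthesis, rose by 2.24, 1.69 and 1.82, and the sterol carrier *Stard4* by 1.81. *Scd1*, a stearoyl-CoA desaturase, was at 17.6, 8.33 and 9.09 CPM and 150.2, 26.4 and 78.6 CPM (log2 2.79, SE 0.57, adjusted p = 0.0237), and its relative *Scd2* at 125, 56.0 and 91.8 CPM and 943, 207 and 362 CPM (log2 2.40). *Fads1* and *Fads2* are the desaturases of polyunsaturated fatty acids. *Fads1* was at 66.6, 30.0 and 52.6 CPM and 320.2, 121 and 242 CPM (log2 2.13), and *Fads2* at 144, 48.3 and 81.7 CPM and 924, 198 and 267 CPM (log2 2.27). Except for *Nsdhl*, which was highest in replicate 3, these genes were lowest, among the CM libraries, in replicate 2 and highest in replicate 1, the order also seen for the summed Leydig genes, and the part of Leydig cells in these values was not tested.

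Genes of cell death and of the p53 response were described next. Of 29 Bcl2 family and caspase genes, 8 rose and 0 fell (13 and 1 with the block), with a median of 0.55. The members with the smallest p included *Xiap* and *Birc3*, which restrain caspases, at log2 2.20 and 2.06, beside the initiator caspase *Casp8* (1.65) and cytochrome c, *Cycs* (1.75). *Xiap* was at 2.76, 5.71 and 3.95 CPM and 22.6, 12.7 and 23.6 CPM (adjusted p = 0.0214). The summed level of the whole list was nearly the same in both groups, 726.9 to 781.8 CPM in CTCF HET and 718.6 to 809.8 CPM in CM. Of 18 p53 target genes, 6 rose and 0 fell (10 and 0 with the block), with a median of 0.93, among them *Ccng1* (5.68, 6.26 and 3.95 CPM against 31.6, 14.3 and 34.4 CPM, log2 2.28, adjusted p = 0.0212), *Trp53inp1* (1.83), *Sesn1* (1.33) and *Gadd45a* (1.98), and these summed to 308.1 to 367.5 CPM in CTCF HET and 404.7 to 585.4 CPM in CM.

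Of 20 retinoic acid pathway genes, 5 rose and 1 fell (6 and 4 with the block), with a median of 0.15. *Aldh1a1*, a retinaldehyde dehydrogenase, was at 170.5, 84.3 and 79.0 CPM and 600.0, 331 and 677 CPM (log2 2.22, adjusted p = 0.0216), and the reductase *Dhrs3* rose by 1.82. *Rarb*, a retinoic acid receptor, fell from 2.43, 2.07 and 2.67 CPM to 0.45, 0.61 and 0.78 CPM (log2 -2.05, SE 0.39, adjusted p = 0.0222). The other receptors tested did not pass, with values from -1.13 for *Rxrg* to 0.57 for *Rarg*, nor did the dehydrogenases *Rdh10* (-0.50) and *Rdh11* (-0.59), while *Rxrg* and *Rdh11* passed with the block (adjusted p = 0.0302 and 0.0288).

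Loci known for regulation by CTCF were examined as 3 further groups. Of 17 imprinted genes, 4 rose and 0 fell (9 and 1 with the block), with a median of 0.84. *Igf2*, whose imprint depends on a CTCF-bound control region, was at 5.60, 3.77 and 5.24 CPM and 51.3, 8.44 and 18.2 CPM (log2 2.35, SE 0.57, adjusted p = 0.0312), *Igf2r* rose by 1.00, *Gnas* by 1.48 and *Impact* by 1.35. Of 50 clustered protocadherin genes, whose alternative promoters are chosen through CTCF sites, 9 rose and 2 fell (18 and 4 with the block), with a median of 0.75. *Pcdhgb8* had 0.41, 0.18 and 0.20 CPM and 2.94, 1.96 and 2.72 CPM (log2 3.10, adjusted p = 0.0205), from 15 and 184 reads, and *Pcdhgb7*, *Pcdhb17* and *Pcdhb20* rose by 1.53, 1.49 and 1.80. Protocadherin genes of a cluster share 3′ exons or are near-identical, so the division of reads between them is uncertain. Of 13 Hox genes, *Hoxd4* (1.71), *Hoxd9* (1.87) and *Hoxc6* (1.55) rose and *Hoxb3* fell (-1.13). Among 20 cohesin and loop genes, 1 rose (4 higher and 2 lower with the block), and the median was -0.0043. The share called, 5%, was below the 15.5% of all genes tested. The gene that rose was *Top2b*, the topoisomerase found at loop anchors, at 10.1, 15.1 and 9.68 CPM and 34.3, 28.1 and 41.9 CPM (log2 1.53, SE 0.29, adjusted p = 0.0216).

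Of the 25 genes that the study names for its RNA-seq, 8 rose and 7 fell (9 and 15 with the block). These genes were chosen by the study on the same libraries, so their directions are no independent evidence. Beside *Kit*, *Abca1*, *Cyp17a1*, *Fads1* and *Fads2*, the 3 X-linked genes *Ssr4*, *Cask* and *Irak1* rose. *Ssr4*, a subunit of the translocon-associated complex, was at 4.86, 4.92 and 7.21 CPM and 24.4, 14.6 and 36.5 CPM (log2 2.10, adjusted p = 0.0216), *Cask*, a membrane scaffold kinase, rose by 1.99 and *Irak1*, an interleukin receptor kinase, by 2.03. *Prss50*, a testis serine protease, fell from 6.50, 6.87 and 5.83 CPM to 2.31, 1.16 and 0.70 CPM (log2 -2.19, SE 0.42, adjusted p = 0.0222). *Gal3st1*, which makes the sulfated glycolipid of germ cells, fell from 2.18, 1.03 and 1.88 CPM to 0.70, 0.24 and 0.31 CPM (log2 -1.94, adjusted p = 0.0353), and *Spns2*, a sphingosine phosphate transporter, from 18.4, 11.1 and 12.2 CPM to 4.39, 3.55 and 3.5 CPM (log2 -1.92). *Ntn5* (-1.86), *Mfi2* (-1.44), *Prkar2a* (-1.17) and *Tcp11* (-1.15) also fell. The other 10 did not pass, with adjusted p from 0.0517 for *Ankrd52* (log2 1.71) to 0.409 for *Dhrs4* (-0.43), and included *Spo11*, the nuclease that starts meiotic recombination (-0.72, adjusted p = 0.0751), and *Crisp2*, a sperm tail and acrosome protein (805, 1814 and 1782 CPM against 282, 1065 and 999.8 CPM, -0.94). With the block all of these but *Dhrs4* (adjusted p = 0.127) passed.

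Genes were then divided by their level in purified WT cells. Of 2458 tested genes at least 4-fold higher in round spermatids than in spermatocytes, 386 (15.7%) fell and 191 (7.77%) rose in CM testis, with a median of -0.56. Of 1408 genes at least 4-fold higher in spermatocytes, 16 (1.14%) fell and 92 (6.53%) rose, with a median of 0.22. Genes within 4-fold of each other, 8434 in number, fell in 302 cases (3.58%) and rose in 458 (5.43%). The 4231 genes below 1 CPM in both purified cell types supplied 1015 of the 1756 genes called higher (57.8%), 24% of the class, and 102 of those called lower (2.41% of the class), with a median of 0.80. The decreases were thus most frequent in the spermatid class and the increases in the class below 1 CPM in both cell types. Of all genes tested, 4.88% fell and 10.6% rose.

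X-linked genes made up 9.21% of the genes called higher with an annotated position and 3.97% of those tested. Of 631 X-linked genes tested, 159 (25.2%) rose and 19 (3.01%) fell, and their median log2 fold change was 0.60, against -0.02 for autosomal genes. Of the 159, 100 (62.9%) were below 1 CPM in both purified WT cell types, against 43.6% of all X-linked genes tested. Ribosomal proteins gave an example within a single complex. Of 70 cytosolic ribosomal protein genes, the 4 on the X chromosome, *Rps4x*, *Rpl10*, *Rpl36a* and *Rpl39*, rose, and of the other 66, 0 were called (the list gave 8 higher and 3 lower with the block). *Rps4x* was at 5.56, 4.74 and 3.16 CPM in CTCF HET and 25.7, 20.1 and 45 CPM in CM (log2 2.70, SE 0.39, adjusted p = 0.02), *Rpl10* at 8.27, 6.08 and 4.35 CPM and 29.4, 16.1 and 38.3 CPM (log2 2.11), *Rpl36a* rose by 1.93 and *Rpl39* by 1.99. Among 3 X-linked respiratory chain genes, *Cox7b* and *Ndufb11* rose, by 1.91 and 1.89. X-linked genes are silenced in pachytene spermatocytes and remain low in spermatids, and the part of somatic cells and spermatogonia in these values was not tested.

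Loss of BORIS with both *Ctcf* alleles present gave far fewer calls. Between BORIS KO and WT, 16344 genes were tested and 1 was higher and 8 lower (0.0551% called), with 493 and 584 by the replicate block and 227 and 159 by DESeq2. Without BORIS KO replicate 3, 0 genes were called (1494 at an unadjusted p below 0.05), without BORIS KO replicate 2 0 were higher and 2 lower, without BORIS KO replicate 1 31 and 13, without WT replicate 1 16 and 17, and without WT replicate 3 1 and 5. All 9 genes were also called, in the same direction, between CM and CTCF HET, which shares no library with it. *Nid2* rose, from 11.7, 8.93 and 7.39 CPM in WT to 57.7, 40.3 and 39.9 CPM in BORIS KO (log2 2.29, adjusted p = 0.00891). *Serpine3* fell, from 3.72, 4.66 and 3.10 CPM in WT to 0.06, 0.16 and 0.05 CPM in BORIS KO (log2 -5.52, adjusted p = 0.00891). The change of both genes with 2 *Ctcf* alleles was thus close to that with 1, 2.61 and -6.16. The others were *Gm10406*, *Gm2897*, *Gm5458*, *Ammecr1l*, *4933406F09Rik*, *4933438B17Rik* and *4930572K03Rik*, all lower, and 6 of the 7 of these 9 genes with an annotated position lay on chromosome 14, which held 559 (3.61%) of the 15505 genes with a position tested in both contrasts. *Nid2* lies at chr14:20570479-20631009 and *Serpine3* at chr14:63282504-63311080. *Gm5458* lies at chr14:20413361-20421803, close to *Nid2*. *Gm2897*, *Gm10406* and *4933406F09Rik* lie between chr14:3049285 and chr14:8255199, so the 6 genes are not 6 separate places on the chromosome.

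Most genes called in CM differed in the same direction in BORIS KO. Of the genes called higher in CM, 98.8% had a positive log2 fold change between BORIS KO and WT, against 52.1% of all genes, with a median of 0.67. Of the genes called lower, 2.87% had a positive one, with a median of -0.36. These genes were chosen by their change in CM, so that a smaller median in the other contrast follows in part from the choice and does not show a smaller effect. The difference between the contrasts was tested as an interaction over the 12 libraries. Of 17185 genes, 0 were called (1713 had an unadjusted p below 0.05, and the smallest adjusted p was 0.473), against 10 above and 28 below (0.221%) by DESeq2 and 0 and 4 (0.0233%) with the replicate block (3299 at an unadjusted p below 0.05). Leydig genes had a median of 0.82 between BORIS KO and WT and flagellum genes one of -0.24, against 1.83 and -0.76 with 1 *Ctcf* allele.

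The genes with the smallest p for the interaction are given as values. *C3* differed by 2.33 with 1 *Ctcf* allele and by 0.46 with 2. *Rps4x* differed by 2.70 and 0.48, *Anxa1*, a phospholipid-binding annexin, by 2.26 and 0.05, the RNase gene *Rnase4* by 3.54 and 0.61, and *Actr3*, an actin-nucleating subunit, by 1.34 and -0.16. In the other direction, *Csnk1g2* differed by -1.80 and -0.14, *Hk1* by -1.70 and -0.39, the inducible chaperone *Hspa1b* by -2.18 and -0.29, the ubiquitin ligase *Neurl1a* by -2.0 and -0.13, and *Wbscr25* by -1.50 and -0.14. For none of them did the interaction pass the test without the block.

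**Figure D4:**
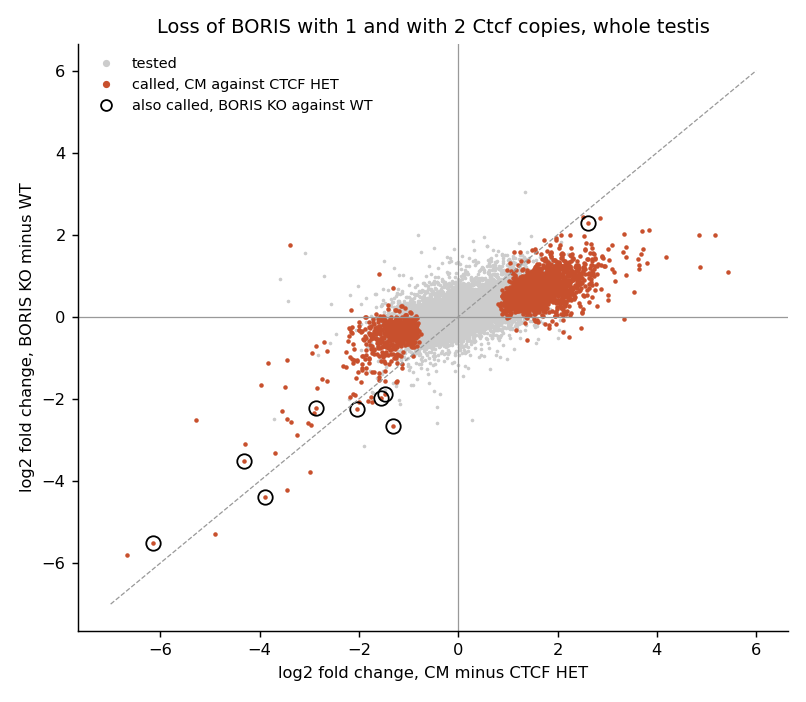
Log2 fold change of each gene tested in both contrasts, with CM minus CTCF HET on the x axis and BORIS KO minus WT on the y axis; red points were called between CM and CTCF HET, rings mark the 9 genes also called between BORIS KO and WT, and the dashed line marks equal values. Of the red points, 98.8% of those to the right of 0 lie above 0 on the y axis; since they were chosen by their value on the x axis, their distance from the dashed line is not a result.

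In purified cells of the same genotypes few genes or none were called. In round spermatids 15337 genes were tested and 0 were called by edgeR (0%, 3332 at an unadjusted p below 0.05, 0 with the block), against 1208 higher and 368 lower by DESeq2. Without CM replicate 1, 1383 genes were higher and 1905 lower. In spermatocytes 13 of 13539 genes were higher and 30 lower (0.318% called), 35 and 62 with the block and 229 and 312 by DESeq2. Without CM replicate 1 34 and 59 spermatocyte genes were called, without CM replicate 2 3 and 1, without CTCF HET replicate 1 1 and 3, without CTCF HET replicate 2 1 and 1, and without CTCF HET replicate 3 0 and 1. Of the 1756 genes called higher in whole testis, 1224 were tested in round spermatids and 1000 in spermatocytes, and 80.0% and 75.1% of these had a positive fold change there (medians 1.16 and 0.47), against 48.5% and 57.9% of all genes. Of the 806 called lower, 767 and 682 were tested, and 13.8% and 48.7% of these had a positive one (medians -0.53 and -0.02). *Dnahc11* was 1 of the genes called in both preparations, with log2 fold changes of 3.38 in whole testis and 9.26 in spermatocytes (adjusted p = 0.00476), while *Csnk1g2* and *Hk1* gave -0.67 and -0.69 in round spermatids and 0.13 and -0.11 in spermatocytes, none of which passed. Flagellum genes had a median of -0.43 in round spermatids and -0.13 in spermatocytes, and Leydig genes, at -0.24 and 0.27, did not show in purified cells the increase of whole testis.

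Peaks of the same series place CTCF and BORIS near gene starts. No CTCF HET peak list was analysed, so peaks of WT and CM were set beside the calls, and each list stands for 1 antibody and genotype without replicate error. A WT CTCF peak lay within 1 kb of a start of 33.9% of 15893 genes tested that had an annotated position, of 32.5% of those called higher and of 32.9% of those called lower. A WT BORIS peak lay there for 17.9%, 14.3% and 17.2%. A CTCF peak in WT and none in CM was found for 22.5%, 20.8% and 21.2%. The shares for called genes were close to those for all genes tested, and the widest gap was that of BORIS at genes called higher.

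The lists of RNA polymerase II (Pol2) and of H3K4me3, a histone mark of active promoters, gave wider gaps. A WT Pol2 peak lay at 54.2% of all genes, 23.3% of those called higher and 66.8% of those called lower. A Pol2 peak in CM and none in WT lay at 11.3%, 24.9% and 3.89%, and an H3K4me3 peak in CM and none in WT at 8.95%, 20.5% and 4.15%. *Nid2*, for example, had a Pol2 and an H3K4me3 peak at its start in CM and neither in WT, and *Serpina3n* had a Pol2 peak in CM and none in WT. *Cyp17a1* had neither mark listed in either genotype, and *Serpine3* had no CTCF, BORIS, Pol2 or H3K4me3 peak at its start in any of the 7 lists.

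**Figure D5:**
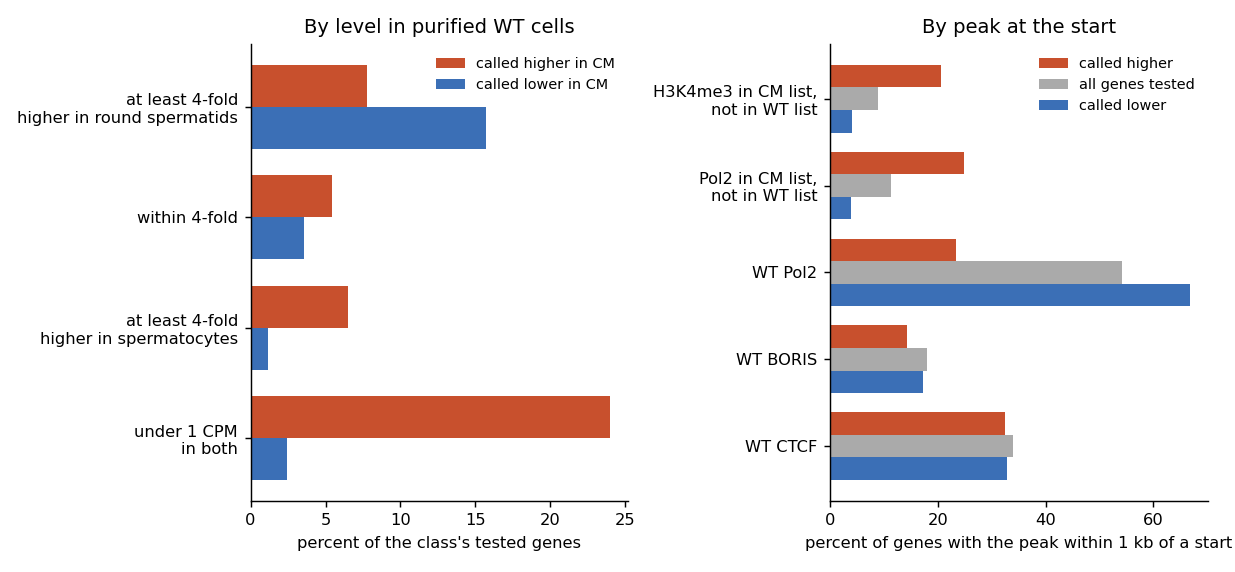
Left, percent of the tested genes of each class of expression in purified WT cells that were called higher or lower in CM testis. Right, percent of genes called higher, of all genes tested and of genes called lower that had the named peak within 1 kb of a start. The class under 1 CPM in both cell types has the longest bar of genes called higher (24%), and the bars for CTCF and BORIS are nearly level.

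Named genes with a BORIS peak near their start are shown with the sequence at the peak, since these are places where BORIS, lost in CM, was bound in WT testis. Among the called genes named here other than *Dmrtb1*, *Hspa1l* and *Odf3l1*, 24 had 26 such BORIS peaks, 22 of which overlapped a WT CTCF peak and 6 a CM CTCF peak. Of the 15893 genes tested that had a position, 2848 (17.9%) had a WT BORIS peak within 1 kb of a start. Of these 2848 genes, 2238 also had a WT CTCF peak there and 1157 a CM CTCF peak, counted by gene and not by overlap of peaks. As a mark of CTCF binding, the 7-base word was taken whose share of the 121-base windows around WT CTCF summits exceeded its share of windows around gene starts by the most, counting both strands. This was AGAGGGC, found in 26.3% of 34625 WT CTCF windows and 4.01% of 15893 windows at gene starts, the values it was chosen by. It was present in 16.7% of 7652 WT BORIS windows and 31.0% of 21525 CM CTCF windows. Of the 26 windows, 3 held it, those of *Cask*, *Cycs* and one of *Pdgfra*. A window without the word may still hold a CTCF site, since only 26.3% of the WT CTCF windows had it. Of the 14 windows that touch no exon, the 6 with the highest BORIS peaks and the 1 with the word follow, 5′ to 3′ on the strand of the gene and from the mm9 genome, with the word or its reverse complement in capitals.
Sik1 (chr17:31992959-31993079, minus strand): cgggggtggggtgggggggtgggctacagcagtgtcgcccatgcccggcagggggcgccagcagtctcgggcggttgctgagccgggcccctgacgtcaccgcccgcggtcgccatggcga
Fads2 (chr19:10175327-10175447, minus strand): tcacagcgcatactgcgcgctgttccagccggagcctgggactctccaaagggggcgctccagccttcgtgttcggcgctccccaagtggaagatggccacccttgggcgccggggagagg
Pdgfra (chr5:75551791-75551911, plus strand): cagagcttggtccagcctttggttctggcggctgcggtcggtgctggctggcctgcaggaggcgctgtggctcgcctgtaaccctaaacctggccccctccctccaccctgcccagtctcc
Rpl36a (chrX:131120060-131120180, plus strand): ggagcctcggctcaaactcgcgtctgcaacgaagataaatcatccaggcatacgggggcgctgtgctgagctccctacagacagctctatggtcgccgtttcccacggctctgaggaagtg
Pim1 (chr17:29627354-29627474, plus strand): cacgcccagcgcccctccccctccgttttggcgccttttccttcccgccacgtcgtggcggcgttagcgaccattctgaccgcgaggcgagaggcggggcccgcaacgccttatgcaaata
Spns2 (chr11:72303581-72303701, minus strand): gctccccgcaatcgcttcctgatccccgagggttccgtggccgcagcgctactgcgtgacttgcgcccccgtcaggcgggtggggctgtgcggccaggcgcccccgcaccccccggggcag
Cask (chrX:13424048-13424168, minus strand): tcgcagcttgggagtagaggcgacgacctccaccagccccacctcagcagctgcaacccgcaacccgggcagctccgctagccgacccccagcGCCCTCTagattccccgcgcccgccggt
The BORIS summit lay 282, 73, 343 and 178 bases before the nearest annotated start of *Sik1*, *Rpl36a*, *Pim1* and *Spns2*, 340 and 247 bases before that of *Pdgfra* and *Cask* inside the annotated gene, and 606 bases after that of *Fads2*. All 7 BORIS peaks overlapped a CTCF peak in WT, and those of *Sik1* and *Pdgfra* also overlapped one in CM. *Fads2*, *Pdgfra*, *Rpl36a* and *Cask* rose in CM, and *Sik1*, a salt-inducible kinase, *Pim1* and *Spns2* fell, so these windows included genes of both directions.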

How the data were processed

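RNA-seq libraries were made from rRNA-depleted RNA of germ cell-enriched testis suspensions and sequenced on the Ion Proton. Reads were mapped to mm9 by the authors (TopHat2, then Bowtie2), who deposited unnormalized counts for 23284 gene symbols; the counting tool, annotation and use of strand are not given in the sources used here, so overlapping antisense genes cannot be told apart. Round spermatids and spermatocytes were purified by elutriation and sorting, and their poly(A) libraries, aligned with STAR, are in a separate table of counts deposited by the authors, which was tested apart. For CTCF and BORIS the authors deposited peak positions with a height (a signal whose normalization is not stated), and for Pol2 and H3K4me3 a MACS score for each peak. Sequencing depth behind the peaks is unknown. Of the whole testis symbols, 25 read as dates and were kept. All value columns belonged to listed samples, identified by their titles.

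Counts were filtered with filterByExpr (minimum count 10, total 15), scaled by TMM and tested with the quasi-likelihood F test of edgeR 4.0.16 (R 4.3.3) fitted to the 6 libraries of a contrast (12 for the interaction), with Benjamini-Hochberg adjusted p < 0.05. The SE is the fold change divided by the square root of F. CPM are TMM-scaled over the 12 whole testis libraries. Alternatives were DESeq2 1.42.0, RLE scaling, no filter, a fit over all genotypes, a block for the replicate number, the thresholds of the study (adjusted p < 0.001 and fold change > 2), a fold change above 2, leaving out each library in turn and, added after seeing the data, library totals with no TMM scaling. The labels do not say what the replicate number stands for. Residuals of CTCF HET and CM libraries with the same number correlated above 0.1 in 3 of 3 pairs (0.298 to 0.632). With other numbers 2 of 6 pairs did (-0.507 to 0.241). Over all genotypes 18 of 18 pairs with the same number did, and 11 of 36 with other numbers. On this basis the numbers were read as pairing libraries. The ranges over all genotypes overlapped, at 0.121 to 0.632 and -0.569 to 0.409, so the pairing is not clear for every library. P-values measure the spread between pools of mice. Without the block that spread also holds whatever libraries of the same replicate number share. The smallest p that exact permutation of 3 against 3 libraries allows is 0.1. The fits were tested on simulated data.

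The comparison and the gene lists were chosen with earlier results of these data known. The genes named are *Ctcf*, *Ctcfl*, *Rltpr* and *Gm10406*, the 25 genes the study names for RNA-seq, in each direction the 10 called genes with the smallest p and the 10 with the largest fold change (no overlap, a mean of at least 1 CPM in the higher group, no clone or model names), up to 4 members of each list by p, and the 5 genes with the smallest interaction p in each direction. Some genes that this rule names are not reported here. The word shown in the sequences was chosen from the windows themselves. The 9 genes called between BORIS KO and WT, the list members named beyond 4 and the genes at the sequences were named after their values were seen. Gene starts are from the GENCODE annotation of mm9, matched by symbol for 15893 of 16531 genes tested (96.1%).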

Additional observations from a re-analysis of the deposited data

Results flagged for a closer look

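For 4 genes the effect of losing BORIS differed between mice with 1 and with 2 *Ctcf* alleles, by the interaction test of edgeR with the replicate number as a block over the 12 whole testis libraries (0.0233% of 17185 genes called). Without the block none of them passed, since no gene had an adjusted p below 0.473. *4933402P03Rik* was at 636, 648 and 898 CPM in CTCF HET and 133, 210.0 and 233 CPM in CM (log2 -1.97, and -0.37 between BORIS KO and WT), an interaction of -1.61 (SE 0.226, adjusted p = 0.0355). *Odf3b*, related to the outer dense fibre gene *Odf3*, was at 16.2, 25.3 and 46.5 CPM and 5.17, 6.54 and 8.95 CPM (log2 -2.15 and -0.24), an interaction of -1.74 (SE 0.247, adjusted p = 0.0355). *Sik1*, a salt-inducible kinase, was at 88.0, 47.6 and 60.8 CPM and 24.6, 15.5 and 13.2 CPM (log2 -1.93 and -0.34), an interaction of -1.57 (SE 0.225, adjusted p = 0.0355). *Spata3*, a testis gene, was at 252, 392 and 508 CPM and 77.5, 149 and 155 CPM (log2 -1.64 and -0.25), an interaction of -1.39 (SE 0.209, adjusted p = 0.0443). All 4 fell in CM and differed little between BORIS KO and WT. Groups of 3 libraries are too small for a search for outlying libraries.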

How the results depend on the processing

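With the replicate number as a block the counts of genes higher and lower in CM went from 1756 and 806 to 3860 and 3246, and the share of calls that were higher from 68.5% to 54.3%. The block also raised the counts between BORIS KO and WT to 493 and 584, those of spermatocytes to 35 and 62 and those of the interaction to 0 and 4; in the purified cells the number was not known to pair libraries. All 4 genotypes in one fit gave 3112 and 1895 (BORIS KO against WT 2 and 10), DESeq2 2485 and 1533 (BORIS KO against WT 227 and 159, interaction 10 and 28, round spermatids 1208 and 368, spermatocytes 229 and 312), and no filter 1935 and 667 (74.4% higher), against 3 and 17 between BORIS KO and WT. RLE scaling gave 1607 and 896, and library totals with no TMM scaling 3821 and 297 (92.8% higher). At an adjusted p below 0.001 with a fold change above 2, 0 genes were called in whole testis for CM against CTCF HET, for BORIS KO against WT and for the interaction. The settings chosen after seeing the data gave 2705 and 1206 for the block with a fold change above 2, 1262 and 518 for the block at 0.001, and 644 and 270 for DESeq2 at 0.001. The cause of these shifts was not tested.

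Leaving out 1 library at a time gave 0 to 2869 genes higher and 0 to 794 lower for CM against CTCF HET, 0 to 31 and 0 to 17 for BORIS KO against WT, 0 and 0 for the interaction, 0 to 1383 and 0 to 1905 in round spermatids, and 0 to 34 and 1 to 59 in spermatocytes. Of 144 called genes named in the text, 143 were still called by DESeq2, 144 with the block, 144 with RLE scaling, 140 with no filter and 143 in the fit over all genotypes, and 0 changed direction under any setting. With no TMM scaling 130 were still called, and the 14 lost were *Gal3st1*, *Prkar2a*, *Prm2*, *Izumo1*, *Prss37*, *Spaca4*, *Spaca7*, *Lrrc52*, *Catsper3*, *Catsper4*, *Tssk2*, *Tssk4*, *Hspa1a* and *Hoxb3*, all lower in CM. The value of *Ctcf*, which was not called, was -0.08 and ran from -0.17 (without CTCF HET replicate 3) to 0.040 (without CM replicate 3), turning its direction, as did no TMM scaling (0.31).

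With peaks within 2 kb of a start, WT CTCF and BORIS peaks lay at 37.2% and 16.4% of the genes called higher, at 38.2% and 20.7% of those called lower and at 38.7% and 19.9% of all genes tested. With peaks in the upper 50% of heights or scores the shares were 15.1% and 8.98% of the genes called higher, 17% and 9.72% of those called lower and 15.7% and 10.2% of all, and those of Pol2 and H3K4me3 peaks listed in CM and not in WT were 21.0% and 10.4%, 5.57% and 2.20%, and 12.6% and 4.9%. Genes such as *Ctcfl*, with 2 to 8 reads per library, are below the depth at which a difference could be seen.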

Other observations

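Immediate early and heat shock genes, which respond to handling of tissue, were among the few groups with more decreases than increases outside the spermatid genes. Of 19 tested, 1 rose and 5 fell (4 and 7 with the replicate block), while the median log2 fold change was 0.32. *Hspa1b*, the inducible HSP70 gene, was at 128, 67.1 and 98.3 CPM in CTCF HET and 15.7, 30.9 and 19.8 CPM in CM (log2 -2.18, SE 0.36, edgeR adjusted p = 0.0212), and its neighbouring near-identical copy *Hspa1a* at 52.7, 30.1 and 31.4 CPM and 14, 20.1 and 15.4 CPM (log2 -1.25). The nuclear receptor *Nr4a1* fell by 1.45 and the zinc finger gene *Klf6* rose by 1.43.

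Of 13 endothelial genes, 2 rose and 0 fell (5 and 1 with the block), with a median of 0.86. The share called, 15.4%, was near the 15.5% of all genes tested. *Robo4* was at 0.78, 0.79 and 0.89 CPM and 2.86, 2.02 and 2.96 CPM (log2 1.63) and *Cdh5*, VE-cadherin, at 2.31, 2.61 and 4.64 CPM and 13.6, 6.05 and 7.78 CPM (log2 1.48), whereas *Vwf*, von Willebrand factor, at 57.8, 29.5 and 29.7 CPM and 26.7, 19 and 16.4 CPM, did not pass (log2 -0.96, edgeR adjusted p = 0.0746; 0.00223 with the block). The summed level of the endothelial genes overlapped, with 52.9 to 86.9 CPM in CTCF HET and 50.5 to 87.2 CPM in CM. Only 2 of 7 erythrocyte genes could be tested and 0 were called by edgeR or DESeq2. Of 75 respiratory chain genes, 4 rose and 0 fell (12 and 4 with the block), with a median of 0.14. The share called, 5.33%, was below the 15.5% of all genes tested. Those that rose included *Atp5g3* (1.36) and *Ndufa4* (1.92).

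Between the contrasts, 20 genes had a fitted change of more than 4-fold downward in CM against CTCF HET and also in BORIS KO against WT, and 9 one of more than 4-fold upward in both. Of the 20, 19 passed the edgeR test in the first contrast and 5 in the second, and of the 9, 9 and 1 (*Nid2*). The 9 included *Nid2*, *Serpina3n*, *Cldn10* and *Thrsp*, and the 20 included *Serpine3*, *Gm10406*, *Defb11*, *Defb15*, *Hapln1*, *Rprl3* and *Ccdc109b*, of which *Serpine3* and *Gm10406* passed in the second. Of those with an annotated position, 4 of 14 and 2 of 8 lay on chromosome 14, against 3.61% of the 15505 genes with a position tested in both contrasts. They include *4933406F09Rik*, *Gm10406*, *Serpine3* and *Nid2*, which were also among the genes on chromosome 14 called between BORIS KO and WT. The counts are therefore not separate from those given there.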
